A study of Mus musculus with 3 samples.

Results

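The mitochondrial genome of mouse T-helper 1 (Th1) cells was examined gene by gene and strand by strand. Its members are all genes that the deposited count tables place on chromosome M, 37 of the 50600 genes counted. That rule uses no measured value. RNA was sequenced from primary Th1 cells, the CD4 T cells that make interferon gamma, of the mouse strain C57BL/6NJ. There were 3 libraries in 1 group, called replicates 1, 2 and 3 after the labels, which give them a common donor record, with age and sex not recorded. Headers of the count tables carry the terms 72 hr and Sorted. The assay is labelled total RNA, while the name of its linked protocol refers to polyadenylated RNA. No treated or control group was present, so the libraries were described and compared only with each other, and a spread between them may be technical.

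The mitochondrial genome is a small circle that is copied into RNA along nearly its whole length from both strands. The long transcripts are then cut, mostly at the tRNAs that lie between the other genes, into rRNAs, mRNAs and tRNAs. All of its proteins are membrane subunits of the respiratory chain or of ATP synthase, its rRNAs and tRNAs serve only the ribosomes inside the organelle, and activated T cells build up this machinery as they start to divide. Strands are named here as in the annotation: 28 genes lie on the plus strand and 9 on the minus strand. The plus strand carries 12 protein genes, 2 rRNA genes and 14 tRNA genes. The minus strand carries 1 protein gene, mt-Nd6, and 8 tRNA genes, which together are 6.92% of the annotated bases. Positions are those of mm10 in the deposited files, counted from 1.

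The libraries held 4482916, 266790 and 3733531 counts, of which 56384, 4198 and 44105 lay on the mitochondrial genome. Replicate 2 was therefore by far the shallowest, and a single count in a gene of 67 bases was worth 116 TPM there, against 7.14 and 7.33 TPM in replicates 1 and 3. TPM is a count divided by the gene's length and scaled so that each library has the same sum. The T-cell genes Cd3e, Cd4, Trac and Lck and the Th1 genes Tbx21, Ifng, Il12rb2, Stat4 and Cxcr3 were all at 1 TPM or more on average, and Cxcr3 had 8, 0 and 6 counts. Cd3e, which overlaps a gene on the other strand, had 292, 1 and 157 counts (34.2, 1.90 and 18.9 TPM). Summed over the T-cell genes the level was 730, 653 and 416 TPM. All 10 markers of B cells, macrophages, erythroid cells, platelets and neutrophils had 0 counts in every library. Of the CD8 T-cell markers, Cd8a had 0 counts and Cd8b1 had 14, 0 and 7.

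A fragment was counted when its first read lay on the gene's strand, so a level is that of the counted strand. The tables do not say which strand of the RNA that read copies. On the mitochondrial genome no gene lies opposite another over more than 14 bases, so counts of both strands at the same place could not be compared. In the nucleus, 6 ribosomal protein genes share at least 200 exon bases with a gene on the other strand. The opposite gene had more counts than the ribosomal gene in 2 of these 6 pairs in every library. Rpl35 had 1787, 93 and 904 counts against 9051, 701 and 13645 for Wdr38, and Rpl23a had 7561, 302 and 3630 against 26618, 1866 and 29725 for Tlcd1. In the other pairs the ribosomal gene was higher. Rps25 had 5801, 359 and 3864 against 195, 11 and 140 for Trappc4, and Rpl18 3361, 133 and 2031 against 367, 8 and 362 for Sphk2. Rpl5 had 4350, 377 and 2284 against 588, 67 and 827 for Fam69a, and Rpl31 1856, 182 and 1096 against 497, 70 and 649 for Tbc1d8. In each of the 6 pairs the opposite gene stood highest relative to the ribosomal gene in replicate 3. If the first read copies the other strand of the RNA, every level given here would be that of RNA from the opposite strand at the same positions. That holds for the mitochondrial share, the minus-strand share, the mt-Nd6 level, the complex I share and the rRNA and tRNA comparisons below. It also holds for the comparison between libraries, the markers and the nuclear genes, and was not tested. This pair check was added after the counts had been seen.

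The genome as a whole took a small share of the counts of each library. Fragments that align equally well to a nuclear copy, described below, are not in that share, and their number was not measured. Mitochondrial genes held 1.26% of the counts in replicate 1 (95% Wilson interval 1.25 to 1.27), 1.57% in replicate 2 (1.53 to 1.62) and 1.18% in replicate 3 (1.17 to 1.19), a mean of 1.34% ± 0.208 (SD, n = 3). Replicate 2 was the highest, and none of the 3 intervals overlapped. Such intervals cover counting error alone, because PCR copies of a fragment are not separate molecules. As a share of TPM the values were 3.99%, 6.62% and 3.90%.

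The few genes annotated on the minus strand took a large share of these counts, on the counted strand. They held 34.7% in replicate 1 (95% Wilson interval 34.3 to 35.1), 45.4% in replicate 2 (43.9 to 46.9) and 34.8% in replicate 3 (34.4 to 35.3), with a mean of 38.3% ± 6.16 (SD, n = 3). Replicates 1 and 3 agreed within counting error, and replicate 2 was higher. In counts per base the minus strand stood at 89.1% of the sum of both strands. Among nuclear genes the minus strand held 48.6%, 48.3% and 48.4% of the counts, so there the strands were close to even in each library. Of the 50600 genes, 25275 are nuclear genes on the minus strand, so these shares are no check on the strand setting.

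**Figure D1:**
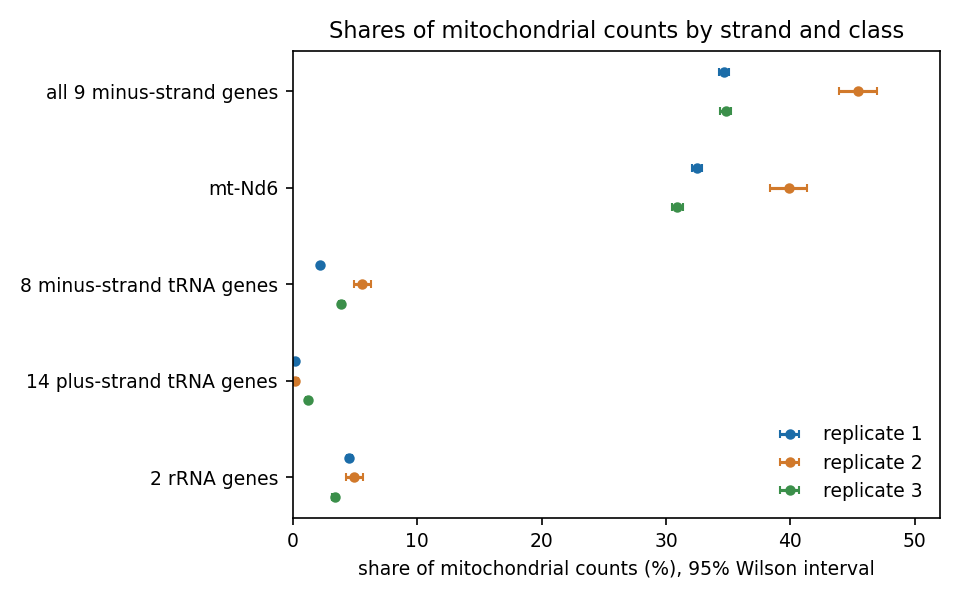
Share of all mitochondrial counts (horizontal axis, percent) held by the minus-strand genes, by mt-Nd6 alone, by tRNA genes of either strand and by rRNA genes, with 95% Wilson intervals, 1 point per library. Replicate 2 lies to the right of the others for mt-Nd6 and for the minus-strand tRNA genes, and replicate 3 for the plus-strand tRNA genes.

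Most of the minus-strand counts fell on mt-Nd6, which encodes a subunit of complex I, the entry point of electrons from NADH into the respiratory chain. mt-Nd6 (chrM:13552-14070, minus strand, 519 bases) held 32.5%, 39.9% and 30.9% of the mitochondrial counts in replicates 1, 2 and 3, more than any other member in each library. Its level was 16877, 24948 and 12897 TPM, a mean of 18241 ± 6140 TPM (SD, n = 3). In the order of mean TPM it was followed by the tRNA gene mt-Tp at 7096 ± 4562 TPM, and its lowest library was above the highest library of mt-Tp. Of the 25 pairs of neighbours in that order this was the only pair whose ranges were apart, and in the other 24 they overlapped. The lead over the tRNA genes rests on dividing by the whole gene length. With 100 bases taken off each length, down to no less than 1 base, mt-Nd6 had 3665 TPM, mt-Te 30285 TPM and mt-Tp 76479 TPM.

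Its neighbour mt-Nd5, another complex I subunit, lies on the plus strand (chrM:11742-13565), and the 2 genes meet tail to tail. Their last 40 bases, read 5′ to 3′ on each gene's own strand, show the stretch that the genes share on opposite strands, 14 bases long and set in capitals (GENCODE transcripts on GRCm38, positions chrM:13526-13565 and chrM:13552-13591):
mt-Nd5: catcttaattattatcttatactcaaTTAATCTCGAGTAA
mt-Nd6: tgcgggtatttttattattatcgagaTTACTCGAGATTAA
The rest of mt-Nd6 has no annotated gene opposite to it. On the plus strand 579 bases lie between mt-Nd5 and the next gene, mt-Cytb.

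Only 6 of the 12 plus-strand protein genes had counts in every library, and all 6 were below mt-Nd6 in 3 of 3 libraries. mt-Co1, the catalytic subunit of complex IV, had 3318, 2735 and 1598 TPM (10721, 546 and 5027 counts) and the highest mean of these at 2550 ± 875 TPM. mt-Nd5 had 1633, 2266 and 3350 TPM (6229, 534 and 12444 counts). mt-Cytb, the cytochrome b subunit of complex III, had 2182, 2923 and 1051 TPM (5220, 432 and 2448 counts). Their orders differed: mt-Co1 was highest in replicate 1, mt-Cytb in replicate 2 and mt-Nd5 in replicate 3, so these 3 genes could not be ranked.

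The complex I subunits mt-Nd1, mt-Nd2 and mt-Nd4 had lower means, but their ranges overlapped those of the genes above: mt-Nd1 exceeded mt-Nd5 and mt-Cytb in replicate 1. mt-Nd1 had 2369, 1642 and 922 TPM and mt-Nd2 1842, 1558 and 1107 TPM, so both were highest in replicate 1 and lowest in replicate 3. mt-Nd4 had 1121, 848 and 955 TPM, the narrowest range of the 6. On the log2 scale mt-Nd6 exceeded mt-Co1 by 2.85 ± 0.44, mt-Nd5 by 2.92 ± 0.85, mt-Cytb by 3.22 ± 0.35, mt-Nd1 by 3.52 ± 0.60, mt-Nd2 by 3.58 ± 0.40 and mt-Nd4 by 4.18 ± 0.61 (mean ± SD over 3 libraries). These are 7.21-fold to 18.2-fold differences in TPM. With length counted only over stretches of 50 bases not shared with nuclear transcripts, described below, the excess fell from 7.21-fold to 3.77-fold over mt-Co1 and from 18.2-fold to 7.30-fold over mt-Nd4. With stretches of 100 bases the log2 excess was 2.53 over mt-Co1 and 3.03 over mt-Nd4. For each pair the exact two-sided sign-flip permutation test gave p = 0.25, the smallest value that 3 libraries allow. Without division by length the median log2 difference over the 6 genes was 2.33 in place of 3.37.

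**Figure D2:**
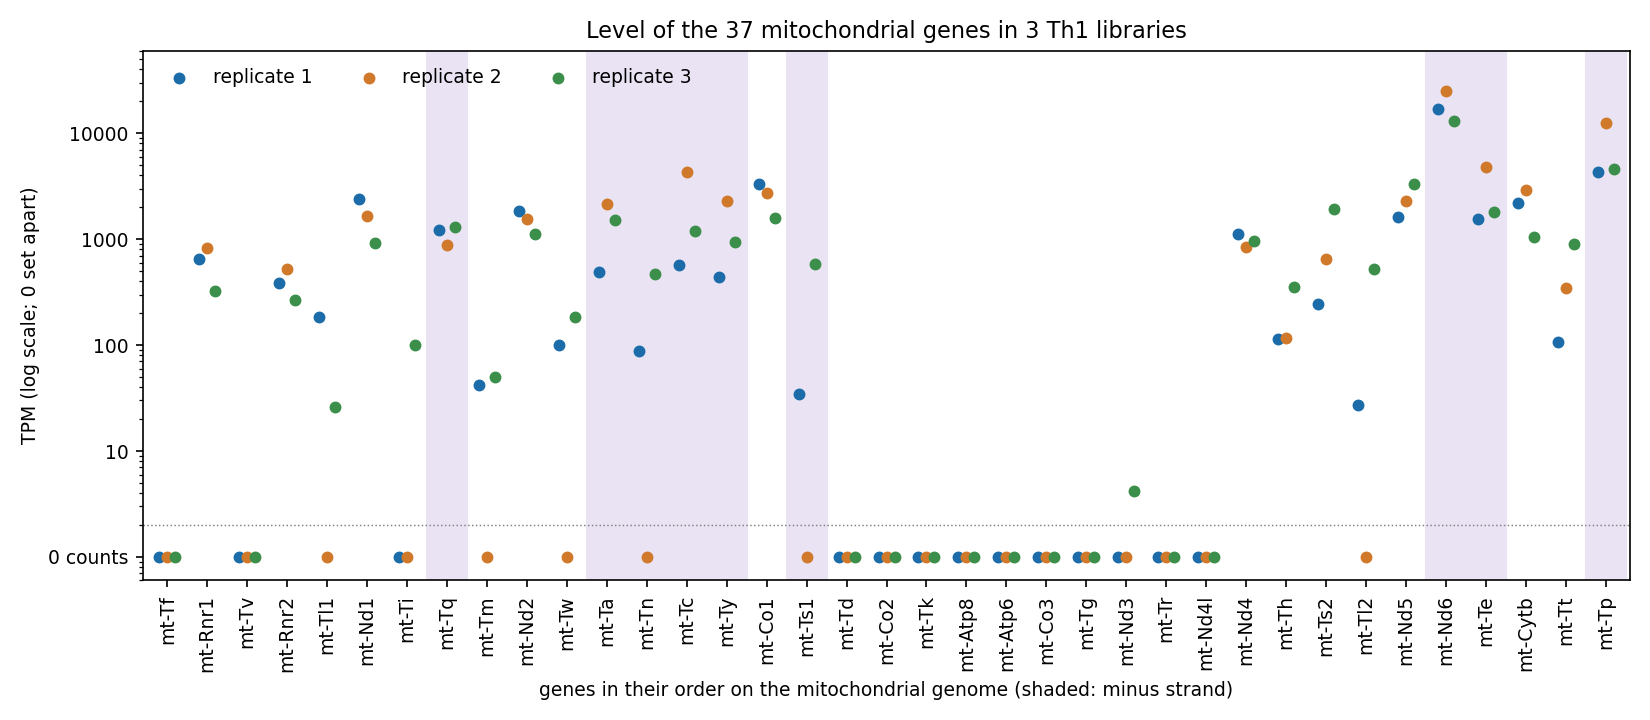
Level of each of the 37 genes in TPM (vertical axis, log scale, with 0 counts set apart at the bottom) in their order on the mitochondrial genome, 1 point per library, minus-strand genes shaded. mt-Nd6 is highest at 12897 to 24948 TPM, and a run of genes from mt-Td to mt-Nd4l lies at 0 except for mt-Nd3 in replicate 3.

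A run of plus-strand genes in the middle of the genome was almost empty. mt-Co2 and mt-Co3, subunits of complex IV, mt-Atp6 and mt-Atp8, the ATP synthase subunits of this genome, and mt-Nd4l, a complex I subunit, had 0 counts in each library. So had the tRNA genes mt-Td, mt-Tk, mt-Tg and mt-Tr that lie among them. mt-Nd3, also of complex I, had 0, 0 and 3 counts. In terms of complexes, the 7 subunits of complex I held 64.8%, 66.0% and 74.6% of the mitochondrial counts, cytochrome b 9.26%, 10.3% and 5.55%, the 3 subunits of complex IV 19.0%, 13.01% and 11.4%, all of it mt-Co1, and the 2 subunits of ATP synthase none. These shares do not compare the RNA of the complexes. mt-Co2, mt-Co3 and mt-Atp6 share 99.5% or more of their 50-base stretches with nuclear transcripts, described below, and mt-Atp8 lies in the same run. Within the complex I share, mt-Nd6 alone held 32.5%, 39.9% and 30.9% of the mitochondrial counts. A count of 0 allows up to 3 counts, the floor used here for each library.

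The empty run coincides with a stretch of chromosome 1 that carries a copy of the mitochondrial genome. Nuclear copies of this kind are transfers of mitochondrial DNA, annotated as pseudogenes, and fragments that align equally well to a gene and its copy are not counted by the program used unless it is told to. The command in the file headers has no such option. The pseudogenes Gm29216, Gm28661, Gm10925, Gm28437, Gm28438, Gm10222 and Gm28439 lie on chr1:24611535-24616197 and follow, on the minus strand, the order of mt-Co1, mt-Co2, mt-Atp6, mt-Co3, mt-Nd3, mt-Nd4l and mt-Nd4. Their spacing is that of the mitochondrial genes to within 1 base, so the span mirrors chrM:6381-11043. In the RNA sequences of the annotation the copies of mt-Co2, mt-Atp6, mt-Co3, mt-Nd4l and mt-Nd4 had 0 mismatches to their genes over 681, 678, 783, 294 and 876 bases.

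Of the 11 mitochondrial genes that lie wholly in the mirrored span, 9 had 0 counts in each library. The exceptions were mt-Nd3 and the minus-strand tRNA gene mt-Ts1, which had 5, 0 and 82 counts. Wholly outside the span 2 of 24 genes had 0 counts throughout, the tRNA genes mt-Tf and mt-Tv on either side of mt-Rnr1. By stretches of 50 bases, 100% of mt-Co2, 99.5% of mt-Atp6, 99.9% of mt-Co3, 98.0% of mt-Nd3 and 98.8% of mt-Nd4l occurred in nuclear transcripts too. mt-Atp8 had no annotated copy and no shared stretch, but lies in the span between the copied mt-Co2 and mt-Atp6. The nuclear genome sequence was not used here, so unannotated copies were not searched. Whether the copy on chromosome 1 accounts for the empty genes was not tested.

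mt-Co1 and mt-Nd4 lie partly in the span, mt-Co1 with its last 492 of 1545 bases and mt-Nd4 with its first 877 of 1378. They shared 51.1% and 62.2% of their stretches with nuclear transcripts, mt-Co1 partly with Gm13340 on chromosome 2. With length counted over unshared stretches alone, the mean level of mt-Co1 was 5350 TPM and that of mt-Nd4 2657 TPM, in place of 2550 and 975. The levels of both genes are uncertain to that extent. mt-Nd6 shared none, and on the same basis had 19994 TPM. The start of the copy of mt-Co1 is shown because the bases that differ from the gene lie there alone, with those 6 bases in capitals (GENCODE transcripts on GRCm38, chrM:6381-6430 plus strand and chr1:24616148-24616197 minus strand):
mt-Co1: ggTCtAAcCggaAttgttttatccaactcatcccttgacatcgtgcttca
Gm29216: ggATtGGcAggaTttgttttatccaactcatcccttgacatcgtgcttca
After these bases the gene and the copy were identical to the end of mt-Co1. Gm29216 had 0 counts in each library.

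**Figure D3:**
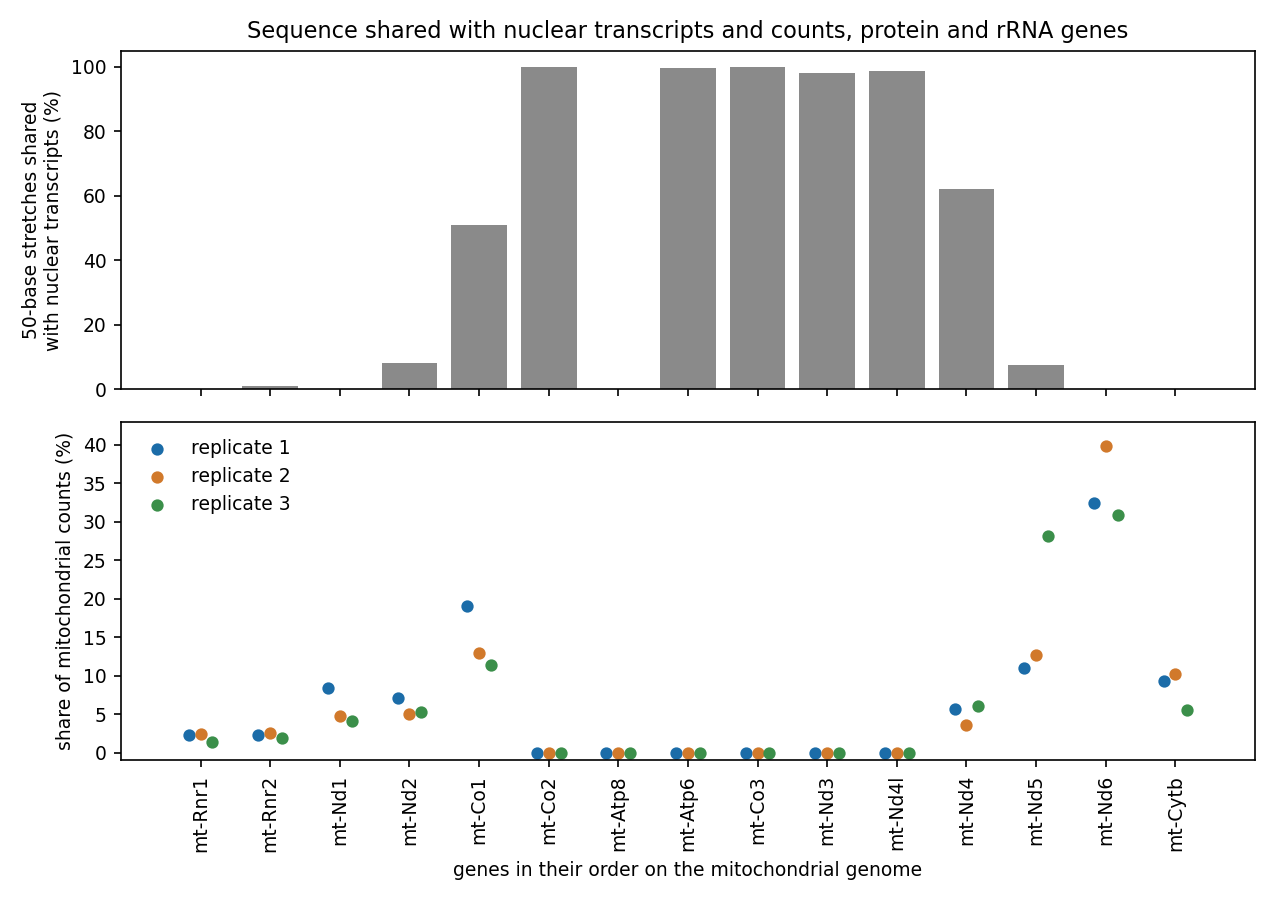
Upper panel: share of 50-base stretches of each protein and rRNA gene that also occur in nuclear transcripts (percent). Lower panel: share of mitochondrial counts (percent) per gene and library, in genome order. The genes with 98.0% or more shared stretches lie at or near 0 in the lower panel, as does mt-Atp8, which has no annotated copy but lies between them.

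The nuclear copy of mt-Nd3 was the exception among the copies. Gm28438 (chr1:24612775-24613119, minus strand) had 87, 4 and 614 counts in replicates 1, 2 and 3, where mt-Nd3 itself had 0, 0 and 3. The other 13 nuclear genes of the table that share a stretch of 50 bases with a mitochondrial gene had between 0 and 2 counts in each library. Gm28438 differs from mt-Nd3 by a single base over its 345 bases, T3C, with the gene's base first and positions counted from the gene's first base. The first 45 bases of both are shown with that base in capitals (GENCODE transcripts on GRCm38, chrM:9459-9503 plus strand and chr1:24613075-24613119 minus strand):
mt-Nd3: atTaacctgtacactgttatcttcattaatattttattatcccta
Gm28438: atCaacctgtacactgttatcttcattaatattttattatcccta
The reference assembly is from C57BL/6J and the cells were of C57BL/6NJ, and which base these cells carry was not analysed here. Scaled to a common library size by TMM (counts per scaled library size, CPM), Gm28438 had 18.4, 14.02 and 185, so replicate 3 stood far above the others, as mt-Nd3 had its few counts there too. Replicate 2 rests on 4 counts.

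The rRNAs, which form the core of the mitochondrial ribosome, were counted per base below the 7 protein genes that had counts in every library. mt-Rnr1, the small-subunit rRNA, had 1299, 101 and 627 counts (650.5, 818.5 and 322 TPM) and mt-Rnr2, the large-subunit rRNA, 1276, 106 and 857 counts (386, 519 and 266 TPM). Both were highest in replicate 2 and lowest in replicate 3. Together they held 4.57%, 4.93% and 3.36% of the mitochondrial counts, although they make up 16.4% of the annotated bases. Per base, rRNA genes stood below the protein genes by a log2 ratio of -2.26 ± 0.30 (-2.18, -2.01 and -2.60 by library; exact sign-flip permutation test, p = 0.25, the smallest possible). Against plus-strand protein genes alone the ratio was -1.64 ± 0.42.

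tRNA genes were counted unevenly between the strands. The 8 on the minus strand held 2.20%, 5.57% and 3.91% of the mitochondrial counts, and the 14 on the plus strand 0.202%, 0.214% and 1.20%. Per base the minus-strand tRNA genes were higher by a log2 ratio of 4.24, 5.49 and 2.50 in replicates 1, 2 and 3 (exact sign-flip permutation test, p = 0.25, the smallest possible). Replicate 3 thus had the smallest gap, and the direction was the same in 3 of 3 libraries. All 8 minus-strand tRNA genes had counts in replicates 1 and 3 and 6 of them in every library, against 3 of 14 on the plus strand. A tRNA is shorter than most sequenced fragments, and the program does not count a fragment that touches 2 genes of a strand. The room beside most tRNA genes that had counts is therefore given below. How far that room sets the counts was not tested.

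mt-Tp, the tRNA for proline, was the highest tRNA gene, with 602, 107 and 632 counts, and on its own strand the nearest gene lies 1216 bases away. mt-Te, the tRNA for glutamate, adjoins mt-Nd6 with 0 bases between them, has 1216 bases free on its other side and had 225, 43 and 255 counts. These tRNAs and mt-Ts2, a serine tRNA and the highest on the plus strand with 30, 5 and 233 counts, are shown as the genes of their class with the most counts on each strand (GENCODE transcripts on GRCm38, chrM:15356-15422 and chrM:14071-14139 on the minus strand, chrM:11613-11671 on the plus strand):
mt-Tp: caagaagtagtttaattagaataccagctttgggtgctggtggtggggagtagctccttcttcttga
mt-Te: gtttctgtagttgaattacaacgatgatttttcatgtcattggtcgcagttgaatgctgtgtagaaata
mt-Ts2: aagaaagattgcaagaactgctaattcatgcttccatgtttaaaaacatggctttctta
At 59 bases mt-Ts2 is the shortest member, and it overlaps the next gene, mt-Tl2, by 1 base.

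The remaining minus-strand tRNA genes were lower. mt-Tq, for glutamine, had 183, 8 and 189 counts, with 1175 bases or more free on its strand. The cluster of mt-Ta, mt-Tn, mt-Tc and mt-Ty, for alanine, asparagine, cysteine and tyrosine, has gaps of 2, 32 and 2 bases. On its strand 1175 bases are free before mt-Ta and 1543 after mt-Ty. Its counts were 70, 19 and 213, then 13, 0 and 68, then 79, 37 and 159, then 62, 20 and 127. mt-Tn was the lowest of the 4 in each library. mt-Ts1, with at least 1543 bases free on each side, had 5, 0 and 82 counts, and it lies wholly in the span copied on chromosome 1.

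On the plus strand mt-Tt, for threonine, had 15, 3 and 122 counts and mt-Th, for histidine, 16, 1 and 48. mt-Tl2, for leucine, had 4, 0 and 75, mt-Tw, for tryptophan, 14, 0 and 25, and mt-Tl1, also for leucine, 29, 0 and 4. mt-Tm had 6, 0 and 7 counts and mt-Ti 0, 0 and 14. All of these but mt-Tl1 had their most counts in replicate 3. mt-Tf, mt-Tv, mt-Td, mt-Tk, mt-Tg and mt-Tr had none in any library. On the plus strand mt-Tw has 311 bases free on 1 side, and 70 lie between mt-Ti and mt-Tm. mt-Th, mt-Tl2 and mt-Tl1 have at most 1 base free on either side, and mt-Tt adjoins mt-Cytb with 0 bases between them.

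The libraries were then compared gene by gene with a chi-square test on the counts over the whole table, with TMM-scaled library sizes. A gene was called when its Benjamini-Hochberg adjusted p was under 0.05 and its highest library was at least 2 times its lowest. The test holds counting error only and compares these libraries, not conditions. Over all genes 3731 of 11595 tested (32.2%) were called. Of the 37 mitochondrial genes, 23 had a mean of at least 10 counts and were tested, and 14 were too low, 11 of them with 0 counts. Of the 23, 16 were called (69.6%): 14 of 14 tRNA genes, 2 of 7 protein genes and 0 of 2 rRNA genes. The median ratio of highest to lowest library was 2.94 over the 23 and 1.78 over all genes tested.

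Among the protein genes, mt-Nd5 and mt-Cytb were called. mt-Nd5 had 1320, 1871 and 3754 CPM, a ratio of 2.84, and held 11.05%, 12.7% and 28.2% of the mitochondrial counts, so replicate 3 was well above the others. mt-Cytb had 1106, 1514 and 738 CPM, a ratio of 2.05 with replicate 2 highest and replicate 3 lowest (chi-square test, adjusted p = 5.21e-77). It was not called when the libraries were scaled over mitochondrial genes alone, nor without replicate 2 or without replicate 3. mt-Nd6 had 3881, 5863 and 4112 CPM, and its ratio of 1.51 was below the limit. mt-Nd1 (1.85), mt-Nd4 (1.53), mt-Co1 (1.498) and mt-Nd2 (1.20) were below it as well, as were mt-Rnr1 (1.87) and mt-Rnr2 (1.44). With library totals in place of TMM, mt-Rnr1 and mt-Nd1 were called and mt-Tq was not, and mt-Nd1 was called when scaled over mitochondrial genes too.

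Replicate 3 was the highest library for a run of neighbours. mt-Th, mt-Ts2 and mt-Tl2 lie next to each other just before mt-Nd5, and all 4 genes were called with replicate 3 highest, at ratios of 4.27, 11.1, 26.7 and 2.84. Without replicate 1 these ratios were 1.38 (mt-Th, not called), 4.01, 2.15 and 2.01. Together they held 11.1%, 12.9% and 29.0% of the mitochondrial counts in replicates 1, 2 and 3. mt-Tt on the plus strand (11.6), mt-Ts1 (23.3) and mt-Tn (7.45) on the minus strand, mt-Tw (2.54) and mt-Tq (2.03) were also highest in replicate 3. The ratio of mt-Ts1 was 2.35 without replicate 1. mt-Nd4, which lies just before mt-Th, was highest there too, without being called, but highest in replicate 1 under library totals. Replicate 3 was also the library in which the opposite gene stood highest against the ribosomal gene in the nuclear pairs above. How the strand balance of that library bears on these ratios was not tested.

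Replicate 2 was the highest library for the called minus-strand tRNA genes mt-Tc (7.75), mt-Ty (5.34), mt-Ta (4.49), mt-Te (3.16) and mt-Tp (2.94). These rest on 19 to 107 counts in that library. Under library sizes taken from the mitochondrial genes, mt-Ta was highest in replicate 3, and the others remained highest in replicate 2. mt-Tl1 was the single called member highest in replicate 1 (5.09), but it had 0 counts in replicate 2, where 3 counts would be 10.5 CPM and thus above its 6.14 CPM in replicate 1. Its call was lost without replicate 1 and without replicate 3. With the floor of 3 counts put under the library that is lowest before it, mt-Tl1, mt-Tw and mt-Tn, which all had 0 counts in replicate 2, were not called. Across the 18 genes with counts in every library, replicates 1 and 2 correlated with r = 0.83 in log2 TPM (Pearson), replicates 2 and 3 with r = 0.79, and replicates 1 and 3 with r = 0.69. This is a description over genes that share libraries and differ widely in length.

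Leaving out a library changed the calls. Without replicate 2 the test called 12 of 23 members (14.9% of all genes tested), namely mt-Nd5 and 11 tRNA genes. Without replicate 1 it called 6 of 22 (18.0% of all genes), namely mt-Tc, mt-Ts1, mt-Ts2, mt-Tl2, mt-Nd5 and mt-Cytb. Without replicate 3 it called 5 of 17 (11.8% of all genes), namely mt-Ta, mt-Tc, mt-Ty, mt-Te and mt-Tp. mt-Tc was called in each of these settings, and mt-Nd5 in both that kept replicate 3.

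**Figure D4:**
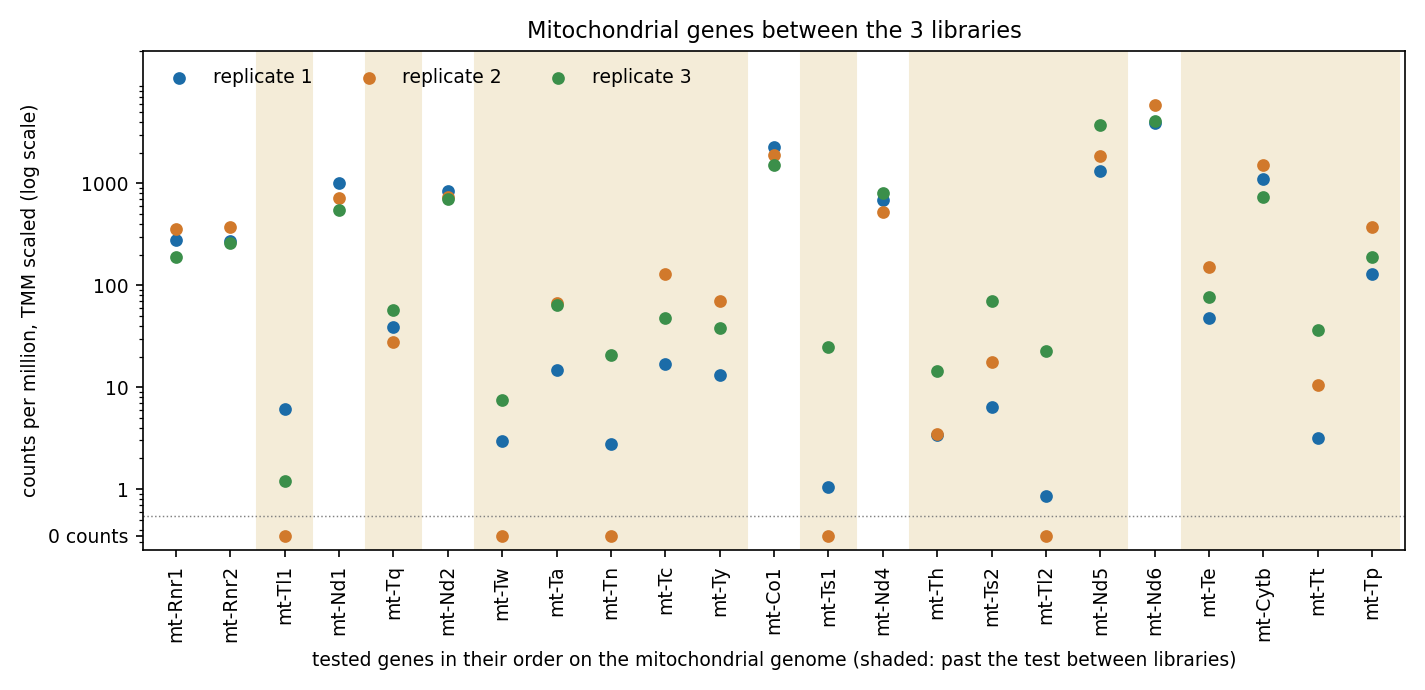
CPM scaled by TMM (vertical axis, log scale, 0 counts set apart) for the 23 mitochondrial genes tested between libraries, in genome order, 1 point per library. Genes past the test are shaded. The protein and rRNA genes lie closer together between libraries than most tRNA genes. Among the protein genes, mt-Nd5 (3754 in replicate 3 against 1320 in replicate 1) and mt-Cytb (1514 in replicate 2 against 738 in replicate 3) are shaded.

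The proteins that transcribe, cut, modify and degrade mitochondrial RNA are made from nuclear genes. Of the 52 genes in 6 fixed lists, 51 were matched, and 49 of these had a mean of at least 1 TPM and 28 of at least 10 TPM. Their median was 13.1 TPM, against 0.633 TPM over 21751 nuclear protein-coding genes. Between libraries, 16 of 47 tested were called (34.0%), close to the 32.2% of all genes. Exons of 22 of the 51 overlap a gene on the other strand, and such genes are marked as overlapped. Where the counted strand is not that of the RNA, counts at an overlap would be those of the other gene, which was not tested. The order within the lists is uncertain to that extent. Of the 29 without an overlap, 28 reached 1 TPM.

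For transcription and its termination, 9 of 10 genes reached 1 TPM. The highest was Mrpl12, a ribosomal protein reported to bind the mitochondrial RNA polymerase (overlapped, 145 ± 42.0 TPM), then the terminator family member Mterf2 (overlapped, 40.4 ± 22.5) and Tfam, which packages mitochondrial DNA and opens promoters (21.9 ± 9.44). The RNA polymerase Polrmt had 101, 4 and 58 counts (7.67 ± 2.30 TPM), and its partners Tfb2m and Tefm had 36, 0 and 20 and 28, 0 and 13 counts. Mterf1a was lowest at 0.663 ± 0.779 TPM. Mterf2 alone of the 8 tested was called, with replicate 2 highest on 15 counts.

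All 9 matched genes of RNA cleavage and end processing reached 1 TPM. Ptcd1 (overlapped) was highest at 218 ± 52.9 TPM, followed by Trnt1, which adds the CCA end to tRNAs (overlapped, 69.6 ± 13.4), and Hsd17b10, a subunit of the RNase P that cuts tRNA 5′ ends (65.6 ± 32.3), and Fastkd5 was lowest at 6.58 ± 5.46. The other RNase P subunits, Trmt10c and Prorp (overlapped), had 16.0 ± 13.9 and 40.7 ± 7.85 TPM, and Elac2, which cuts tRNA 3′ ends, 23.3 ± 13.3 (overlapped). Trmt10c had 191, 1 and 92 counts, Hsd17b10 271, 6 and 162 and Elac2 273, 5 and 151. These 3 genes and Ptcd1 were called, the 3 with replicate 1 highest and replicate 2 lowest, and Ptcd1 with replicate 3 highest.

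Among 9 genes of RNA stability, Slirp, an RNA-binding partner of Lrpprc, was highest at 674 ± 89.0 TPM (overlapped), followed by Fastk (overlapped, 81.5 ± 12.5) and Grsf1 of the RNA granules (36.6 ± 12.2). Lrpprc, which keeps mitochondrial mRNAs stable, had 301, 3 and 170 counts (9.82 ± 7.10 TPM), and it and Ptcd2 were called, both highest in replicate 1. Fastkd1 was lowest at 2.86 ± 1.47. Of the 4 decay genes, Pnpt1, the RNA-degrading partner of the helicase Supv3l1, was highest at 53.5 ± 18.5, then Rexo2 at 39.6 ± 19.0, Supv3l1 (overlapped) at 15.0 ± 5.95 and Pde12 (overlapped) at 13.1 ± 4.56, and Rexo2 was called with replicate 2 highest.

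The genes that modify rRNA were mostly low, with all 8 at 1 TPM or more and 3 at 10 or more. Trmt2b had 22.01 ± 20.2 TPM, Mrm1 18.9 ± 9.53 and Rpusd4 13.1 ± 12.8, these 3 were called, and Mettl15 was lowest (overlapped, 3.97 ± 2.49). Of the 11 genes that modify tRNA 10 reached 1 TPM, led by the pseudouridine synthase Pus1 (overlapped, 58.4 ± 31.95), Yrdc (overlapped, 49.1 ± 13.1) and Trmt5 (23.7 ± 12.7). Trmt61b was just below at 0.999 ± 0.991 (overlapped). In this list 5 of 10 tested were called, 4 with replicate 2 highest and Mto1 (overlapped) with replicate 1 highest.

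**Figure D5:**
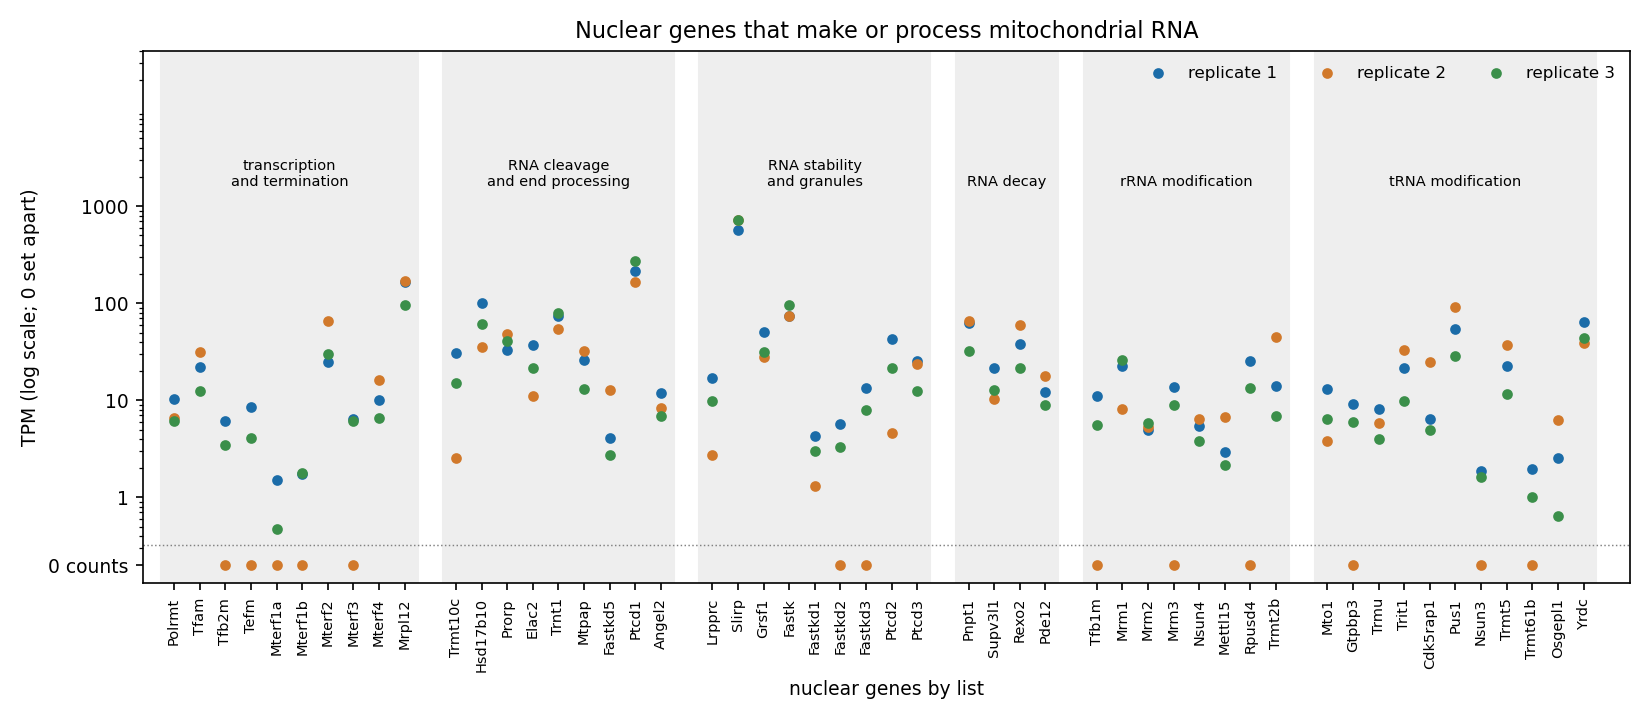
Level in TPM (vertical axis, log scale, 0 counts set apart) of 51 nuclear genes of mitochondrial RNA in 6 lists, 1 point per library. Most lie between 1 and 100 TPM, Slirp is highest at a mean of 674 TPM, and 13 genes have 0 counts in replicate 2.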

How the data were processed

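RNA sequencing of 3 Th1 libraries was deposited as raw counts of fragments per gene, made by the authors with featureCounts 1.4.6-p4 on mm10 and GENCODE mouse release 13, per the file headers. Both ends had to map, the strand setting was 1, and the command holds no option for multi-mapping or multi-gene fragments. The BAM names hold star2, and an aligner version is not given in the sources used here. Names came from GENCODE release 21 (GRCm38), where 50376 of 50600 genes matched. Prorp was matched through a RefSeq synonym, and Fastkd4 had no match.

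TPM was computed from counts and deposited lengths over all genes. Shares have 95% Wilson intervals. Between libraries each gene's counts were put to a chi-square test (SciPy 1.17.1) against TMM-scaled sizes from edgeR 4.0.16. Calls needed a mean of 10 counts or more, an adjusted p under 0.05 (Benjamini-Hochberg, all genes) and a ratio of at least 2, each library floored at 3 counts before the lowest is taken. That floor was settled after the counts had been seen. edgeR's quasi-likelihood test needs a contrast, and 1 group has none. Library ratios were tested by an exact two-sided sign-flip permutation test. Stretches of 50 and 100 bases were searched, on both strands, in GENCODE transcripts. The chi-square calls were tried on simulated Poisson counts, which hold counting error alone as the test assumes, with changes in replicate 3 only. That trial does not measure how the calls behave when libraries spread beyond counting error.

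Every mitochondrial gene may be named, and of each nuclear list the 3 highest, the lowest and further members. The rule for members uses no measured value, but it and the lists were chosen with earlier results of these data known.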

Additional observations from a re-analysis of the deposited data

How the results depend on the processing

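The mitochondrial share of counts, 1.34%, was 4.84% as a share of TPM and 1.70% over protein-coding and mitochondrial genes alone. The minus-strand share of 38.3% was 89.1% per base of exon, and 90.8% and 91.8% over protein and rRNA genes per base unique at 50 and 100 bases. The median log2 excess of mt-Nd6, 3.37, was 2.33 without lengths. The rRNA ratio of -2.26 was -3.02 over unique lengths. Of all genes, 3731 were called between libraries, against 1750 of 5137 tested when 100 counts on average were required, 3415 with the floor put under the library that was lowest before it, 6435 with no minimum ratio, and 1332 to 1941 when a replicate was left out. For mitochondrial genes the 16 calls became 6 of 13 at that minimum, 13 with that floor, 23 of 23 with no minimum ratio, and 5 to 12 without a replicate. Of the 49 nuclear genes at 1 TPM, 28 had no opposite-strand overlap. Taking 100 bases off each length moved 25 of 37 levels by more than 1 SD and turned the order of mt-Nd6 against mt-Te and mt-Tp. Leaving out a replicate moved 14 of the 26 levels above 0 by more than 1.5 times, those of mt-Nd3 and 13 tRNA genes. mt-Tl1 went from 70.4 to 13.1 TPM without replicate 1, mt-Tc from 2031 to 878 and mt-Tp from 7096 to 4464 without replicate 2, and mt-Tn from 186 to 43.8 without replicate 3. Settings with that floor or with unique lengths were added after the data were seen, over transcripts, because no genome sequence was used. The planned search in the genome was not run. Replicate 2, with 4198 mitochondrial counts, limits every tRNA level.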
